A study of Homo sapiens with 6 samples.

Results

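Polyamine metabolism was examined in HCC827 cells through 10 genes, chosen by symbol as the enzymes and regulators that set the cellular content of putrescine, spermidine and spermine. All 10 were found among the 28395 genes of the deposited table. They are 4 genes of synthesis (ODC1, AMD1, SRM and SMS), 3 genes that regulate ODC1 protein (OAZ1, OAZ2 and AZIN1) and 3 genes of catabolism (SAT1, SMOX and PAOX). HCC827 is an established human lung adenocarcinoma line with an activating deletion in EGFR, and erlotinib blocks the kinase activity of this receptor. RNA-seq was performed on 6 libraries of this line, 3 from cells given the vehicle DMSO and 3 from cells given 1 μM erlotinib, all for 24 h, and DMSO and erlotinib were the only difference named between the groups. The libraries, named DMSO1 to DMSO3 and Erlo4 to Erlo6 as in the table, held 20760204 to 24641819 reads on genes. DMSO2 stood apart from the other DMSO libraries. Chi-square per degree of freedom, which is near 1 for sampling noise alone, was taken over genes with at least 10 reads summed over a pair of libraries. It was 22.9 between DMSO2 and DMSO1 and 14.4 between DMSO2 and DMSO3, against 7.61 between DMSO1 and DMSO3. Values are given as signal, the reads of a gene divided by the size factor of its library. The labels do not say that the libraries of a condition came from separate cultures, so p-values measure the spread between these libraries, which may be technical.

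Polyamines are small, positively charged molecules that bind nucleic acids and are needed for growth. Ornithine decarboxylase (ODC1) makes putrescine from ornithine, and S-adenosylmethionine decarboxylase (AMD1) supplies the aminopropyl groups with which spermidine synthase (SRM) and spermine synthase (SMS) build the longer polyamines. Antizyme (OAZ1, OAZ2) binds ODC1 and directs it to the proteasome without ubiquitin, and antizyme inhibitor (AZIN1), a relative of ODC1 without its activity, binds antizyme in its place. On the way back, SAT1 acetylates spermidine and spermine, PAOX oxidizes the acetylated forms, and SMOX oxidizes spermine itself. ODC1 is a well known target of growth factor signalling and of MYC, which binds the E-box CACGTG.

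Sequences of this pathway that carry its regulation are shown from the reference genome. Antizyme mRNA is read with a shift of the reading frame at a stop codon, more often when polyamines are abundant, and the bases around this stop are shown for OAZ1 and OAZ2 since their mRNA level is only part of their control. The capitals mark the last codon of the first frame and the TGA stop that follows it, after 68 codons in OAZ1 and 32 codons in OAZ2. The stretches lie in coding exons, at chr19:2271431-2271460 (plus strand) and chr15:64691498-64691527 (minus strand) of GRCh38.
OAZ1: cggtggtgcTCCTGAtgcccctcacccacc
OAZ2: ctgtggtgcTCCTGAtgcccctcacccact
E-boxes were searched as the letters CACGTG, the same on either strand, in the RefSeq promoters of GRCh38.p14, which run from 250 bases before to 50 bases after each annotated start. Of the 10 genes, 7 had an entry, with 10 starts between them, and 2 of these starts held the motif, those of ODC1 and SRM. Over all genes, 7.26% of 35116 starts held it. The entries of AMD1, SMS, OAZ1, OAZ2 and SAT1 did not hold these letters, and AZIN1, SMOX and PAOX had no entry. In ODC1 both E-boxes lay in an intron of the canonical transcript, around a second start that RefSeq lists within the gene. In SRM the E-box lay upstream of the gene, and its first base was at position -199 from the start. The capitals mark the E-box in stretches at chr2:10448024-10448053 and chr2:10447990-10448019 for ODC1 and at chr1:11060200-11060229 for SRM, all on the minus strand. These matches are a description of sequence, not of binding.
ODC1 E-box A: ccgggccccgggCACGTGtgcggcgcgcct
ODC1 E-box B: ggcctgcggagaCACGTGgtcgccgagcgg
SRM E-box: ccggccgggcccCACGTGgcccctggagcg

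All 4 synthesis genes fell with erlotinib, ODC1 3.58-fold, AMD1 3.95-fold, SRM 3.25-fold and SMS 1.88-fold, and the catabolic gene SAT1 rose 3.11-fold. Each change was tested on the log2(signal + 1) scale with limma, among the 14215 genes whose mean signal reached 10, with Benjamini-Hochberg adjustment over that whole set. A log2 change is the mean of the erlotinib libraries minus that of the DMSO libraries on this scale, and SE is its error. Of the 10 polyamine genes, 7 fell and SAT1 rose past the threshold, an adjusted p-value under 0.05, and OAZ2 passed in neither direction. All 10 genes reached the filter on low values, but PAOX did so only through the erlotinib libraries, where it was high, and is given without a test. Among all tested genes 35.4% were lower and 35.3% higher, 70.7% in either direction, so a call by itself was common. These shares stand for 5031 and 5012 genes, or 3955 and 6156 when the totals of the libraries were made equal. Of the 9 genes without PAOX, ODC1, AMD1, SRM and AZIN1 were lower by at least 1 log2 unit, which 10.8% of all tested genes were, and SAT1 was higher by at least 1, which 17.0% were. The median log2 change was -0.90 over these 9 genes and 0.02 over all tested genes. The libraries of the conditions did not overlap for any of these 9 genes, 7 of them with lower and 2 with higher signal with erlotinib. Over all tested genes, 36.9% had every erlotinib library below every DMSO library, and 36.7% had every one above.

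**Figure D1:**
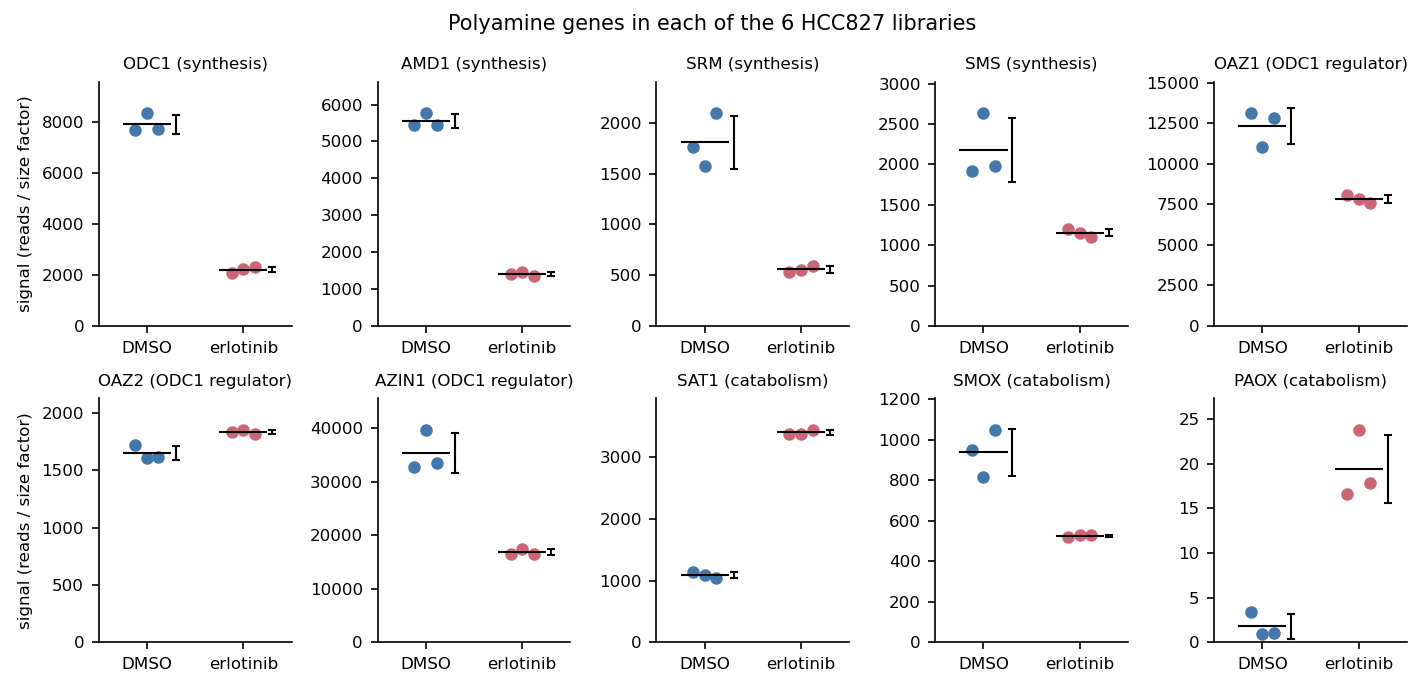
Signal (reads divided by the size factor, y axes from 0) of the 10 polyamine genes in the 3 DMSO and 3 erlotinib libraries, with the mean as a line and the SD as a bar. The 4 synthesis genes, OAZ1, AZIN1 and SMOX lie lower with erlotinib, while SAT1, OAZ2 and PAOX lie higher, OAZ2 by the least.

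ODC1, the enzyme of the first step, had a signal of 7666, 8337 and 7731 in the DMSO libraries and of 2088, 2226 and 2306 in the erlotinib libraries. Every DMSO library was thus more than 3 times as high as every erlotinib library. The mean fell by 72.1%, and the log2 change was -1.84 (SE 0.07, limma adjusted p = 2.0e-15). Of the 14215 tested genes 455 had a lower log2 change. ODC1 (Entrez gene 4953) lies on chromosome 2, 10439968 to 10448327 of GRCh38, and contains SNORA80B, a small nucleolar RNA gene with a mean signal of 2.11 in DMSO.

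AMD1, which commits S-adenosylmethionine to polyamine synthesis, had a signal of 5445, 5761 and 5438 in DMSO and of 1404, 1455 and 1360 with erlotinib. It had the lowest log2 change of the 10 genes, -1.98 (SE 0.07, limma adjusted p = 7.7e-16), a fall of the mean by 74.7%. The replicates were close, with an SD of 184 around a mean of 5548 in DMSO and of 47.6 around 1406 with erlotinib. AMD1 (Entrez gene 262, chromosome 6, 110814617 to 110895713) overlaps CDK19, whose signal moved the other way, from a mean of 656 to 1562.

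SRM, which makes spermidine, had a signal of 1758, 1581 and 2095 in DMSO and of 529, 552 and 589 with erlotinib. The log2 change was -1.69 (SE 0.10, limma adjusted p = 3.2e-12), and the mean fell by 69.3%. SRM (Entrez gene 6723) lies on chromosome 1, 11054589 to 11060018, and overlaps no other gene of the RefSeq annotation. SMS, which makes spermine from spermidine, had a signal of 1916, 2631 and 1975 in DMSO and of 1200, 1156 and 1106 with erlotinib. Its fall was the smallest of the synthesis genes, with a log2 change of -0.90 (SE 0.10, limma adjusted p = 6.5e-08). The 95% confidence interval of SMS, -1.10 to -0.69, did not overlap those of the other synthesis genes, of which the nearest was that of SRM, -1.90 to -1.49. SMS (Entrez gene 6611) lies on chromosome X, 21940709 to 21994837.

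The difference of DMSO2 from the other DMSO libraries was also seen in these genes. Among the DMSO libraries it had the highest signal of ODC1, AMD1, SMS and AZIN1 and the lowest of SRM, OAZ1 and SMOX, while OAZ2 was at 1609 beside 1614 in DMSO3, SAT1 lay between the others and PAOX had 1 read in DMSO2 as in DMSO3. Without DMSO2, the log2 change was -1.80 for ODC1, -1.95 for AMD1, -0.75 for SMS, -1.79 for SRM, -0.73 for OAZ1, -0.98 for AZIN1 and -0.92 for SMOX (limma), and all 7 genes were still lower. That of OAZ2 was then 0.14, still in neither direction.

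Of the regulators of ODC1 protein, OAZ1 and AZIN1 fell and OAZ2 did not pass the test. OAZ1 had a signal of 13115, 11048 and 12819 in DMSO and of 8099, 7842 and 7563 with erlotinib, a log2 change of -0.65 (SE 0.07, limma adjusted p = 4.6e-08). The fall of the mean was 36.4%, smaller than that of ODC1. AZIN1, which protects ODC1 from antizyme, had a signal of 32690, 39626 and 33534 in DMSO and of 16433, 17433 and 16463 with erlotinib. Its log2 change was -1.07 (SE 0.07, limma adjusted p = 3.7e-11). OAZ2, the second antizyme, had a signal of 1716, 1609 and 1614 in DMSO and of 1834, 1851 and 1811 with erlotinib. The libraries did not overlap, but the log2 change was only 0.15 (95% confidence interval 0.00349 to 0.305) and the adjusted p was 0.0631 (limma). Whether OAZ2 passed depended on the method, since edgeR on the recovered reads gave an adjusted p of 0.039 and DESeq2 one of 0.0459. OAZ1 (Entrez gene 4946) lies on chromosome 19, 2269486 to 2273488, OAZ2 (Entrez gene 4947) on chromosome 15, 64687574 to 64703281, and AZIN1 (Entrez gene 51582) on chromosome 8, 102826302 to 102864200.

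The catabolic genes went in different directions. SAT1, whose product acetylates polyamines for export or oxidation, had a signal of 1140, 1099 and 1049 in DMSO and of 3386, 3381 and 3447 with erlotinib. The mean was 3.11-fold higher with erlotinib, a log2 change of 1.64 (SE 0.07, limma adjusted p = 3.3e-14), and 1278 of the tested genes rose further. The SD was 45.7 in DMSO and 36.7 with erlotinib (n = 3 each), so the erlotinib libraries lay far outside the spread of the DMSO libraries. SAT1 (Entrez gene 6303) lies on chromosome X, 23783173 to 23786210. SMOX, the oxidase that acts on spermine directly, had a signal of 948, 815 and 1048 in DMSO and of 519, 529 and 530 with erlotinib. It fell with the synthesis genes, with a log2 change of -0.83 (SE 0.10, limma adjusted p = 3.3e-07). SMOX (Entrez gene 54498) lies on chromosome 20, 4148828 to 4187727.

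PAOX, the oxidase that acts on the products of SAT1, was close to the limit of detection. In DMSO it had 3, 1 and 1 reads, and with erlotinib it had 18, 24 and 19. The ratio of its read rates was 11.2, with an exact 95% interval of 4.53 to 35.6 that covers counting error only. Its log2 change on the log2(signal + 1) scale was 2.95, and 1.31 with a pseudocount of 10, and no test of it is given. The mean signal with erlotinib, 19.4, was still far below those of SMOX and SAT1. PAOX (Entrez gene 196743) lies on chromosome 10, 133379262 to 133391694.

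**Figure D2:**
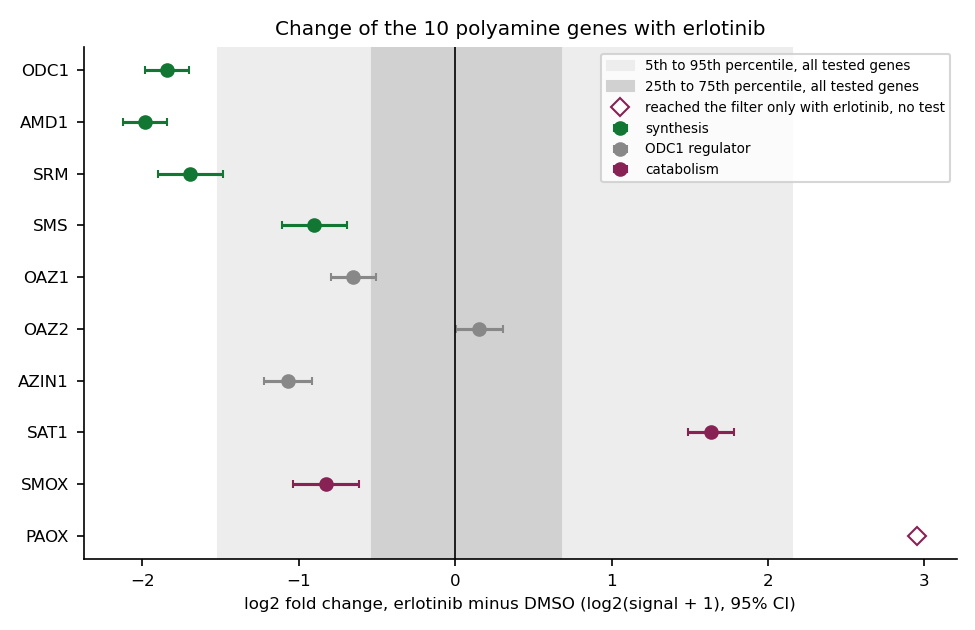
Log2 change (erlotinib minus DMSO, on log2(signal + 1)) with its 95% confidence interval for the 10 genes, coloured by role, with PAOX as an open diamond without an interval since no test of it is given, over grey bands with the 5th to 95th and the 25th to 75th percentile of all 14215 tested genes. ODC1, AMD1 and SRM lie below the 5th percentile (-1.51), and SAT1 lies between the 75th (0.68) and 95th (2.15) percentile.

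To compare levels between genes, the signal was divided by the length in kilobases of the canonical GENCODE transcript, from 1049 bases for SAT1 to 4196 bases for AZIN1. Reads that cross introns or match a gene copy can be lost to a different extent in each gene. The order of levels is therefore approximate. On this scale OAZ1 had the highest level in DMSO, 10729 ± 973 (SD, n = 3), followed by AZIN1 (8409 ± 902) and ODC1 (3195 ± 149). AMD1 (1621 ± 53.8), SRM (1437 ± 207) and SMS (1277 ± 233) came next, and neighbours among these 3 overlapped between libraries. SAT1 (1045 ± 43.5) was the seventh of the 10 genes in DMSO, followed by OAZ2 (851 ± 31.2), SMOX (433 ± 53.9) and PAOX (0.98 ± 0.76). With erlotinib SAT1 was the third, with 3245 ± 34.9 per kilobase (SD, n = 3), behind OAZ1 (6819 ± 233) and AZIN1 (3998 ± 136). OAZ2 (947 ± 10.3), ODC1 (891 ± 44.6), SMS (678 ± 27.4), SRM (442 ± 24.0) and AMD1 (411 ± 13.9) followed, and of the neighbours in this order only SRM and AMD1 overlapped between libraries.

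Synthesis and catabolism were set side by side as sums of signal per kilobase. The synthesis genes summed to 7208, 7849 and 7533 per kilobase in DMSO and to 2378, 2442 and 2446 with erlotinib. The catabolic genes summed to 1527, 1425 and 1485 in DMSO and to 3476, 3480 and 3540 with erlotinib. Synthesis was thus the larger sum in all 3 DMSO libraries, and catabolism in all 3 erlotinib libraries. Which sum is larger carries the same limit as the levels of single genes, since reads can be lost unequally between genes. The ratio of synthesis to catabolism within a library, which does not depend on the scaling of that library, was 4.72, 5.51 and 5.07 in DMSO and 0.684, 0.702 and 0.691 with erlotinib. The mean ratio was 7.37-fold lower with erlotinib. SAT1 made up most of the catabolic sum in every library, and the smaller part, SMOX, moved the other way. No p-value is given for these sums, since the genes were chosen with earlier results of these libraries known.

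**Figure D3:**
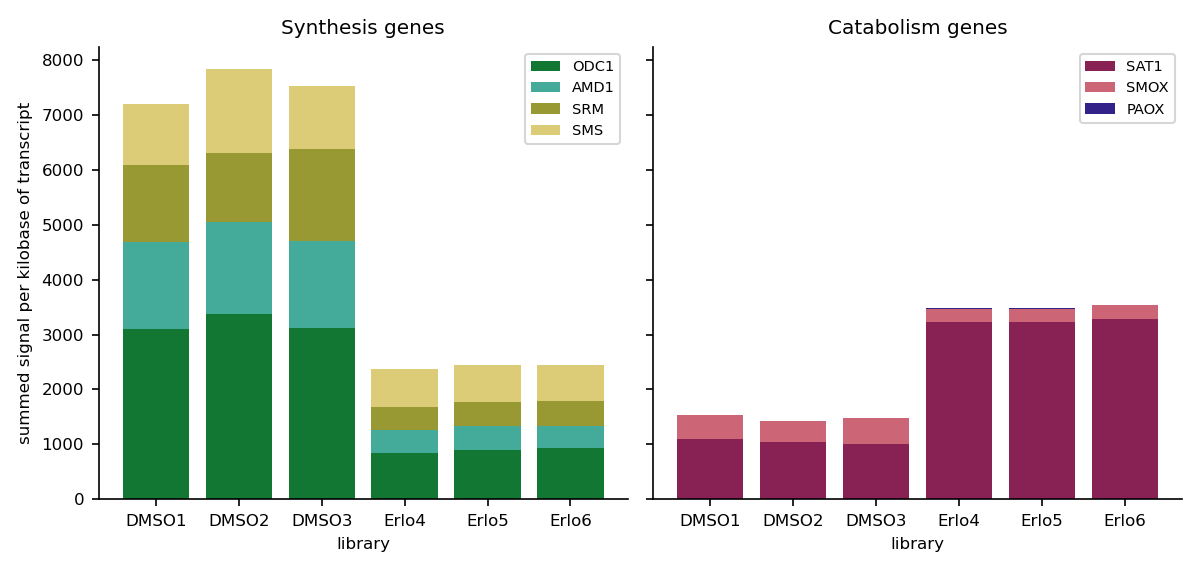
Summed signal per kilobase of transcript (y axis from 0) of the 4 synthesis genes and of the 3 catabolic genes in each of the 6 libraries, stacked by gene. The synthesis sum is 7208 to 7849 in DMSO and 2378 to 2446 with erlotinib, while the catabolic sum goes from 1425 to 1527 up to 3476 to 3540, most of it SAT1.

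Ratios between single genes were also taken within each library, and none of those given here overlapped between the conditions. ODC1 per kilobase was 2.85, 3.21 and 3.12 times SAT1 in DMSO and 0.261, 0.279 and 0.284 times SAT1 with erlotinib. The ratio of ODC1 to SMOX changed less, from a mean of 7.48 ± 1.30 to 3.67 ± 0.143 (SD, n = 3 each), as both genes fell. OAZ1 stood at 3.37 ± 0.451 times ODC1 in DMSO and at 7.67 ± 0.649 times ODC1 after erlotinib, so the mRNA of antizyme was higher relative to that of its target although both fell. The mRNA of AZIN1 relative to that of OAZ1 went from 0.794 ± 0.164 to 0.587 ± 0.0278 (SD, n = 3 each). SMS was at 0.912 ± 0.282 times SRM in DMSO and at 1.54 ± 0.144 times SRM with erlotinib, higher in every erlotinib library than in any DMSO library. The ratio of AMD1 to ODC1 moved least, from 0.507 ± 0.00707 in DMSO to 0.462 ± 0.0313 after erlotinib.

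The genes most like ODC1 over the 6 libraries, by the distance between log2 values after each gene's mean was subtracted, were NEMP1 (distance 0.08), HMGA2 (0.12) and TMEM154 (0.12). Those most like SAT1 were DTX4 (0.08), NOTCH3 (0.10) and STBD1 (0.12).

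Further genes of the pathway were taken from lists of relatives, precursors, salvage, transport and use of polyamines. Of 44 such genes 37 could be tested, 14 falling, 10 rising and 13 passing in neither direction (limma, adjusted p-value under 0.05), and the median log2 change was -0.18. Without the genes that passed the filter on low values only through the erlotinib libraries, 14 of 35 fell, 9 rose and the median was -0.20. Among all tested genes 35.4% were lower and 35.3% higher, so the share that fell was near the background and the share that rose was below it. Among the relatives of the 10 genes, all 4 that could be tested rose and 0 fell, beside 35.3% higher among all tested genes. AOC1, the diamine oxidase that degrades putrescine, rose from 137 ± 16.7 to 410.0 ± 14.6 (SD, n = 3 each, log2 change 1.58, limma adjusted p = 2.8e-09). SAT2, a relative of SAT1, rose from 573 ± 54.6 to 1391 ± 27.1 (log2 change 1.28). AZIN2 (1.22) and OAZ3 (0.85) also rose on the log2 scale, at a mean signal in DMSO of only 19.7 and 42.9.

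The genes that supply arginine and ornithine were divided. Of 10 tested, 5 fell, 2 rose and 3 were neither, beside 35.4% lower and 35.3% higher among all tested genes. The weakest of the 5 was ASL, the argininosuccinate lyase gene, named after its values were seen, whose libraries overlapped (log2 change -0.25, limma adjusted p = 0.0497). The number that fell was 4 in most alternatives, and 4 fell and 4 rose with the totals made equal. AGMAT, annotated as agmatinase, an enzyme of a side route to putrescine, fell from 664 ± 57.6 to 168 ± 29.9 (SD, n = 3 each), a log2 change of -1.99 (limma adjusted p = 4.9e-11). SLC25A15, the mitochondrial ornithine carrier, had a log2 change of -1.51. ASS1, which makes argininosuccinate, rose from 24.6 ± 8.26 to 95.1 ± 16.2 (log2 change 1.95), and GATM, which uses arginine to make guanidinoacetate, rose from 28.6 ± 7.96 to 62.1 ± 7.55 (1.12). In the methionine cycle, which supplies S-adenosylmethionine, MAT2A (-0.44) and AHCY (-0.63) fell, MAT2B (0.48) rose and MTR was neither. Of the 5 genes that salvage methylthioadenosine, the by-product of SRM and SMS, ENOPH1 (-1.28) and MTAP (-0.62) fell and 3 were neither.

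Spermidine is also the donor for hypusine, an amino acid that is formed on the translation factor eIF5A by DHPS and DOHH. EIF5A had a signal of 38016, 33773 and 35286 in DMSO and of 11042, 11520 and 10794 with erlotinib. It fell nearly as far as ODC1, with a log2 change of -1.68 (SE 0.06, limma adjusted p = 4.3e-15), and its libraries did not overlap. DOHH fell from 969 ± 182 to 493 ± 61.4 and DHPS rose from 407 ± 26.6 to 555 ± 57.5 (SD, n = 3 each), with log2 changes of -0.96 and 0.44. EIF5A2, the second eIF5A gene, was at 134 ± 34.9 in DMSO and 98.8 ± 25.6 with erlotinib (limma adjusted p = 0.0884).

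Among 10 tested genes linked to polyamine transport 3 fell and 2 were higher, GPC1 and ATP13A4, near or below the 35.4% lower and 35.3% higher among all tested genes. CAV1, the main protein of caveolae, fell from 46095 ± 1907 to 18596 ± 675 (SD, n = 3 each), a log2 change of -1.31 (limma adjusted p = 1.8e-13). SLC3A2, the heavy chain of several amino acid transporters, had a log2 change of -0.57, and the glypican gene GPC1 one of 0.63. The P5-type ATPase gene ATP13A4 passed the filter only through the erlotinib libraries, so its call is not read as a test, with 1, 0 and 0 reads in DMSO and 23, 17 and 26 reads with erlotinib. The ratio of its read rates was 60.4, with an exact 95% interval of 10.5 to 2420 that covers counting error only.

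**Figure D4:**
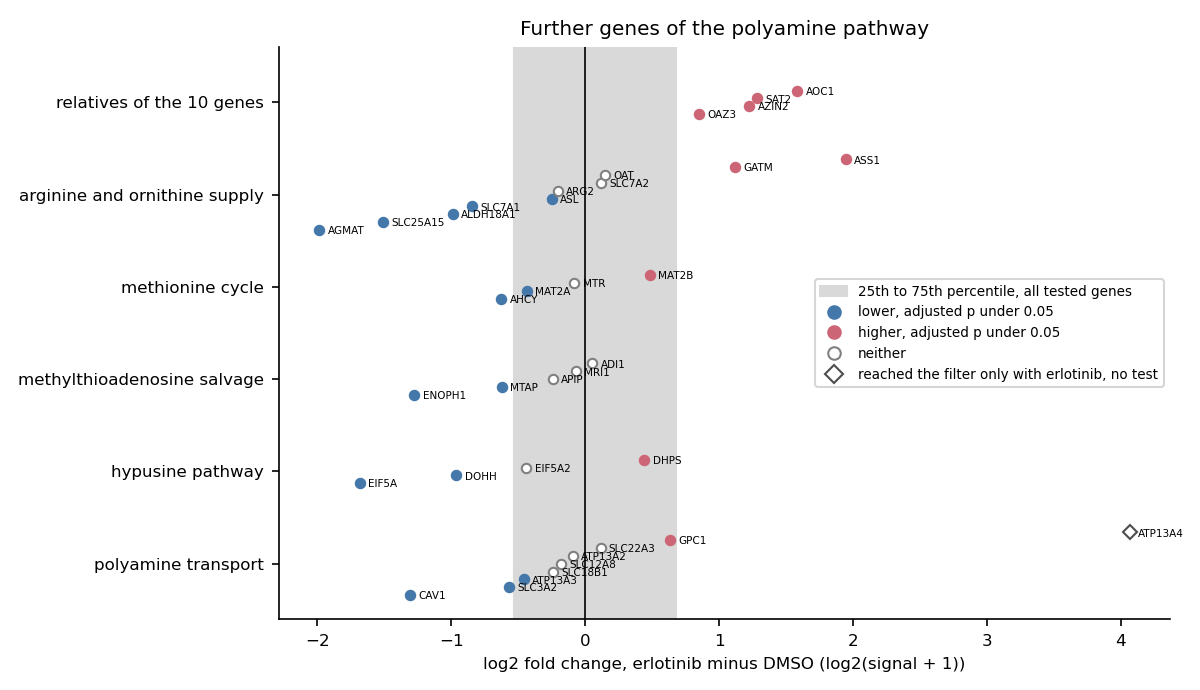
Log2 change (erlotinib minus DMSO, on log2(signal + 1)) of the tested further genes of the pathway, by list and without a gene that is not reported here (blue lower, red higher, open circles neither at an adjusted p under 0.05, diamond without a test), over a grey band with the 25th to 75th percentile of all tested genes. The 4 relatives of the 10 genes lie to the right of 0, and in the other lists genes lie on either side, with AGMAT (-1.99) and EIF5A (-1.68) farthest to the left.

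MYC, whose protein binds the E-box, had a signal of 13274, 12790 and 14199 in DMSO and of 10868, 10752 and 11264 with erlotinib. Its log2 change, -0.29 (SE 0.06, limma adjusted p = 0.000332), was small beside those of ODC1 and SRM, and it was -0.11 with the totals made equal (limma adjusted p = 0.117). These are mRNA values only, and a link between MYC and the change of ODC1 or SRM was not tested. MYCL, a relative of MYC, rose from 48.3 ± 10.4 to 398 ± 36.6 (SD, n = 3 each), and its log2 change was 3.03 (limma adjusted p = 7.0e-12). MYCN was listed at 0 in every library. MYC's partner MAX was at 2423 ± 136 and 2460 ± 58.3, a log2 change of 0.02 (95% confidence interval -0.12 to 0.17).

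The epithelial identity of the line was checked with markers. All 6 epithelial markers (EPCAM, CDH1, KRT7, KRT8, KRT18 and KRT19) were tested and high, the lowest being KRT18 with erlotinib at a mean signal of 7876, and their sum was 254717 to 286813 in DMSO and 185948 to 191721 with erlotinib, with KRT7 the most abundant. Of these, 4 keratins fell and EPCAM and CDH1 were neither, beside 35.4% lower among all tested genes. Markers of other cell types were low. The leukocyte markers PTPRC, CD3E and CD14 were too low to be tested, and CD14 was at 6.60 ± 1.70 in DMSO and 11.8 ± 10.7 with erlotinib. The 3 endothelial markers (PECAM1, VWF and CDH5) summed to 15.8 to 34.0 in DMSO and to 42.6 to 58.1 with erlotinib, led by PECAM1 in DMSO (15.7 ± 3.29, and 10.4 ± 2.20 with erlotinib) and by VWF with erlotinib (27.4 ± 6.93, and 3.94 ± 3.31 in DMSO). The 4 fibroblast markers (PDGFRB, DCN, LUM and COL1A1) summed to 70.3 to 107 in DMSO and to 215 to 259 with erlotinib, nearly all of it COL1A1, and DCN was at 0 in every DMSO library. COL1A1 rose from 77.7 ± 15.3 to 216 ± 27.9 (SD, n = 3 each, log2 change 1.47, limma adjusted p = 6.8e-07), and VWF reached the filter only through the erlotinib libraries, so no test of it is given. The defining markers PTPRC, CD3E, PDGFRB and DCN stayed below a signal of 6 in every library. The part of these genes in the results was not tested. In bulk RNA, fewer cells of a type and less RNA per cell cannot be told apart.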

How the data were processed

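Per the methods of the study, paired-end reads were aligned with Bowtie2 2.3.4 (GRCh38), which does not split reads across introns, unique alignments were assigned to genes by featureCounts 1.6.3, and DESeq2 1.18.1 was named for the comparison. The deposited table is described as raw counts, but it holds signal, reads divided by 1 size factor per library, and division by the step of each library returned whole reads for 100% of the values (tolerance 0.001 reads). The strand counted is not given in the sources used here. GENCODE release 44 lists 4 processed pseudogenes of AMD1, 3 of SRM, 1 of SMS and 1 of OAZ1. Reads that match a gene and its copy would not map uniquely, so these levels are uncertain.

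Genes were kept if their mean signal reached 10, and log2(signal + 1) was fitted with limma 3.58.1 in R 4.3.3 (variance trend on, two-sided, Benjamini-Hochberg adjustment over all genes kept). All 6 libraries were used, and replicates differed by more than sampling noise. Alternatives were edgeR 4.0.16 and DESeq2 1.42.0 on the recovered reads, other pseudocounts, filters, scalings and thresholds, and each library left out in turn. The named genes were the 10 members, MYC and MAX, the 3 genes most like ODC1 and the 3 most like SAT1, and in each further list at most 4 genes, those with the largest change among those past the threshold without overlap between conditions. ASL, MYCL, MYCN, MTR and EIF5A2 were named after their values were seen. The members and lists were chosen with earlier results of these data known. Some genes of these lists are not reported here. Positions are from RefSeq and transcript lengths from the canonical GENCODE transcripts. Figures were drawn with matplotlib 3.10.9.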

Additional observations from a re-analysis of the deposited data

How the results depend on the processing

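No paired analysis was possible because the numbers of the erlotinib libraries in the table (Erlo4 to Erlo6) are not the replicate numbers of the labels. Of the 135 log2 changes of the 9 genes without PAOX under 15 alternatives, 131 kept their direction and call. The other 4 were those of OAZ2, which was higher at an adjusted p-value under 0.05 with the totals of the libraries made equal (0.33, adjusted p = 0.000349), with TMM factors in limma (0.17, 0.0379), with edgeR on the recovered reads (0.17, 0.039) and with DESeq2 (0.16, 0.0459). Equal totals moved the median of all genes from 0.02 to 0.19 on the log2 scale, and the cause of the other changes was not tested. The number of the 10 genes that were lower was 7 in every alternative run, and leaving PAOX aside, that of higher genes was 1 (SAT1), also when each library had to hold at least 10 reads, or 2 where OAZ2 was called. Without PAOX, the median log2 change of the synthesis genes minus that of the catabolic genes was -2.17. Leaving PAOX out was chosen after seeing the data, and SAT1 and SMOX then decide the catabolic median alone. With PAOX counted the difference was -3.40, and -3.07 with a pseudocount of 10, so its size depended on a gene with few reads. With each library left out in turn and PAOX still counted, the difference was -3.45 to -3.32. The log2 change of ODC1 was then -1.87 to -1.80. Over all genes, 3955 to 5096 were lower and 4323 to 6156 higher. Of the further genes of the pathway, 13 to 15 were lower and 9 to 14 higher. Of the 330 values of the named further genes (ATP13A4 left aside) and of MYC, MYCL and MAX, 3 changed. MYC lost its call with equal totals (-0.11), and MAX, at 0.02, was then higher (0.20, limma adjusted p = 0.0191). With each library left out in turn MAX lay at -0.025 (without DMSO1) to 0.047. PAOX and ATP13A4 rest on few reads, so the size of their rise is limited by depth.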
